A study of Homo sapiens with 18 samples.

Results

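Piroxicam (P) was set against cisplatin (C) at 24 h in MSTO-211H cells, an established line of human malignant mesothelioma, with the aim of reading the transcripts that separate the 2 drugs when each is given alone. The comparison takes 3 P arrays and 3 C arrays, 6 of the 18 arrays of the series, and all probe sets on them. P cells received 760 µM piroxicam and C cells 4.5 µg/mL cisplatin, each for 24 h. The remaining arrays hold P and C cells at 8 h (2 arrays each), cells given both drugs (P/C, 2 arrays at each time) and untreated cells (2 arrays at each time). All cells come from this 1 line, grown as monolayers, and the study describes the replicates as biological. No dose series was made, so each drug is represented by a single dose and the sizes below compare these doses.

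Piroxicam, a non-steroidal anti-inflammatory drug, blocks the cyclooxygenases, the enzymes that start prostaglandin synthesis. Cisplatin binds DNA bases and forms adducts and crosslinks, which stall replication forks and RNA polymerase and are known to stabilise p53, the transcription factor that switches on cell cycle inhibitors and death genes. Cells short of amino acids or with misfolded protein in the endoplasmic reticulum run another program, the integrated stress response, in which the factor ATF4 switches on amino acid synthesis and transport. Entry into S phase needs the E2F factors, which drive the genes of the replication machinery.

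Signals are GCRMA log2 values, so a difference of 1 is a 2-fold change. A difference is P minus C, and calls were made where its size was 1 or more and the adjusted p did not exceed 0.05 (limma, Benjamini-Hochberg). Of the 22283 probe sets, 3057 passed the filter on low and steady signals and were tested. Array medians over all probe sets lay between 2.72 and 2.83, and a group mean less than 1 above their median, under 3.77, is called near background, so that the size of a change into that range was not measured. Signals of at least 100 were found for 15% to 16.4% of the probe sets on the 6 arrays. The cell type was checked by its markers. KRT8 and KRT18, keratins of simple epithelium and mesothelium, were bright, but 8 of the 11 measured mesothelial markers, among them MSLN and CALB2, were near background in both groups. All 14 measured leukocyte and erythroid markers were near background too, as were 11 of the 13 stromal and endothelial ones. The summed linear signal of the mesothelial list was 2790 to 3370 in P arrays and 4110 to 4670 in C arrays, and that of the stromal list 107 to 122 and 153 to 237. In the stromal list the collagen gene COL3A1 carried the shift, with a mean of 4.0 in P cells and 6.22 in C cells. The part of these shifts in the results was not tested.

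One array stood apart from its group. The C replicate 1 array correlated with the other C arrays at r = 0.885, against 0.963 between those 2 and 0.953 to 0.971 among the P arrays, over the tested probe sets. It differed by at least 1 from C replicate 2 at 285 probe sets and from C replicate 3 at 214, where replicates 2 and 3 differed at 47. Several results that rest on this array are given with and without it. Why it differs was not tested.

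P and C cells differed at 332 of the 3057 tested probe sets at 24 h, which is 10.9% (limma). In P cells 98 probe sets (3.21% of those tested) were higher and 234 (7.65%) were lower. On 322 of the 332 the 3 P arrays all lay on the same side of the 3 C arrays. Over all tested probe sets every P array lay above every C array at 430 (14.1%) and below at 920 (30.1%). The balance of directions depended on scaling. The median difference over all tested probe sets was −0.12 in the deposited values, with 29.5% rises among the calls, against −0.02 after quantile normalization (45.2% rises) and 0.01 once every array had been shifted to a common median (47.8% rises). Without C replicate 1, 147 probe sets (4.81%) were higher and 243 (7.95%) lower, and 286 of the 332 calls were kept. The 302 called probe sets with a single gene symbol stood for 279 genes.

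Among called genes whose P and C arrays did not overlap, the 12 largest rises in P cells were led by CXCL3 and NR1D2. CXCL3, a chemokine that attracts neutrophils, read 10.01, 9.66 and 9.76 in P cells and 7.32, 6.69 and 6.36 in C cells, a difference of 3.02 (SE 0.52, adjusted p = 0.00143) or 8.09-fold. The P arrays lay together, more than 2 units above the brightest C array. NR1D2, a nuclear receptor of the circadian clock, read 7.64, 6.34 and 7.15 in P cells and 3.84, 3.73 and 4.94 in C cells (difference 2.87, SE 0.61). IRS2, an adaptor of the insulin and IGF receptors, read 7.99, 6.93 and 8.15 in P cells and 5.85, 5.11 and 5.28 in C cells (difference 2.28, SE 0.47). CIRBP, an RNA-binding protein induced by mild cold, differed by 2.04 (SE 0.38). ALDH1A3, which makes retinoic acid from retinal, differed by 2.29, and the actin regulator EPS8 by 1.98. EPS8 was not called without P replicate 3 or C replicate 3 (adjusted p up to 0.0702). The other rises among the 12 largest were COG5 of the Golgi complex COG (2.41), the receptor phosphatase PTPRK (2.37), the heparan sulfate polymerase EXT1 (2.11), the membrane protein EVI2A (1.99), and TRIB3 and MT1X, which are described with their groups. EVI2A was not called without P replicate 1, P replicate 3 or C replicate 2 (adjusted p up to 0.0655). For COG5, PTPRK and EXT1 the 2 untreated arrays lay above the C mean, and C replicate 1 was the brightest C array, at 6.77, 6.81 and 6.25 in that order. The same held for CIRBP and ALDH1A3, with C replicate 1 at 6.83 and 7.67. For NR1D2 and EPS8 both untreated arrays also lay above the C mean, but another C array was the brightest.

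**Figure D1:**
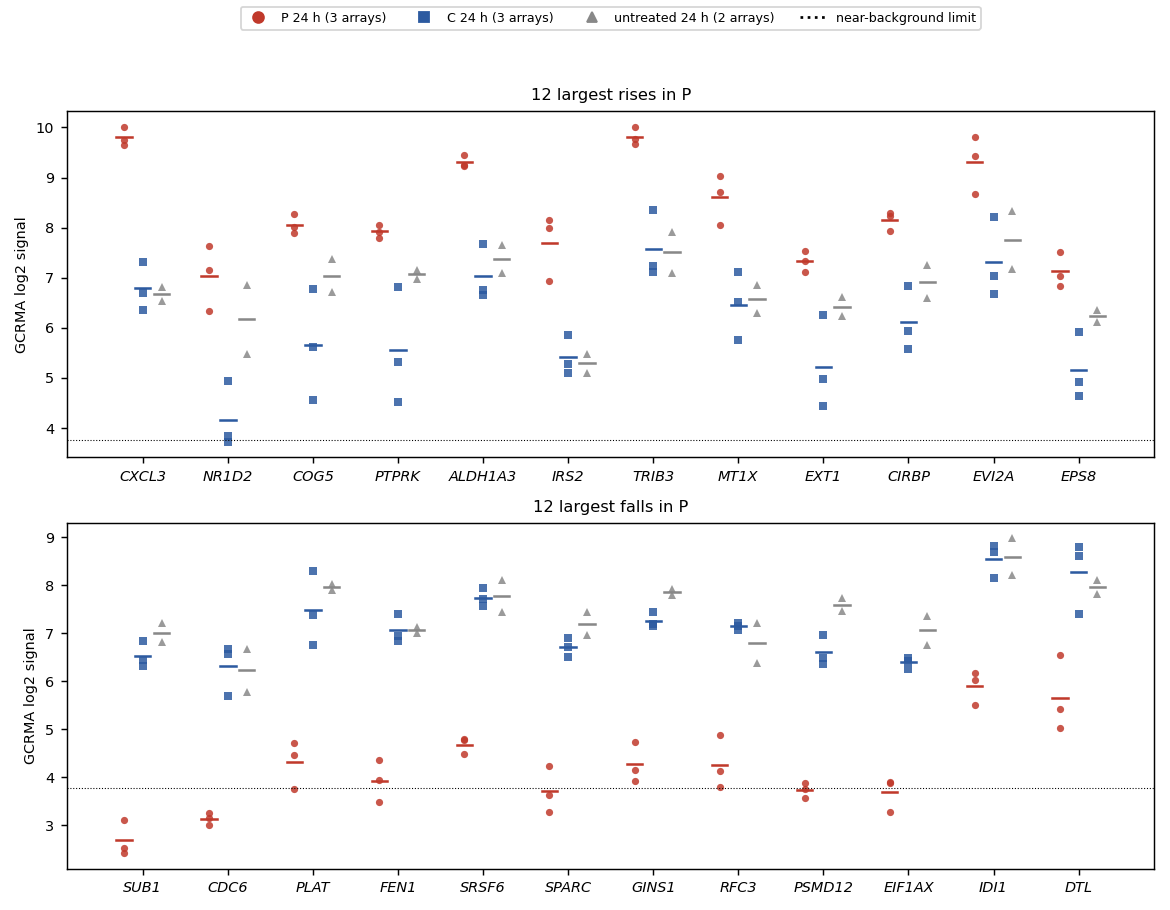
GCRMA log2 signal of the 12 genes with the largest rises (top) and the 12 with the largest falls (bottom) in P against C cells at 24 h, for each P, C and untreated array, with group means as short bars. The 24 genes were taken from calls in which no P array overlapped a C array, so their separation was set by that choice. The P means of SUB1, CDC6, SPARC, PSMD12 and EIF1AX lie under the dotted near-background limit of 3.77.

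The 12 largest falls in P cells, taken in the same way, included PLAT, SRSF6 and 4 replication genes. PLAT, tissue plasminogen activator, which turns plasminogen into plasmin, read 4.72, 3.76 and 4.46 in P cells and 8.30, 7.38 and 6.76 in C cells (difference −3.17, SE 0.59, adjusted p = 0.00227). SRSF6, an SR protein that guides splice site choice, read 4.79, 4.77 and 4.48 in P cells and 7.95, 7.56 and 7.72 in C cells (difference −3.06, SE 0.43, adjusted p = 0.00041). For both genes the untreated mean, 7.97 for PLAT and 7.78 for SRSF6, lay with the C arrays. SUB1, a transcription coactivator, read 3.11, 2.42 and 2.52 in P cells and 6.84, 6.32 and 6.44 in C cells on 1 probe set. Its P mean was near background, so the size of that fall was not measured. IDI1, an enzyme of the isoprenoid pathway, and DTL, the substrate receptor of the ubiquitin ligase that clears licensing factors, differed by −2.65 and −2.61. The replication genes CDC6, FEN1, GINS1 and RFC3 were 4 more of the 12, and PSMD12, EIF1AX and SPARC, described with their probe sets, were the others.

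Genes of DNA replication were the group with the most falls. Of 27 tested, 16 were lower in P cells and none higher, with a median difference of −1.21 against −0.11 over the 2203 tested genes (1 probe set each, the brightest). Over all 2203 genes 82 (3.72%) were higher and 144 (6.54%) lower, and every P array lay above every C array on 14.7% and below on 29.4%. These shares are the ones to set beside the counts of every list below. In bulk RNA, fewer cells in S phase and less RNA per cell cannot be told apart. Among the genes of origin licensing, CDC6, ORC6 and GMNN were lower. CDC6, which loads the helicase at origins, read 3.25, 3.15 and 3.01 in P cells and 5.69, 6.58 and 6.66 in C cells. Its P mean was near background. GMNN encodes geminin, which blocks a new round of licensing, and read 5.28, 5.93 and 5.26 in P cells against 7.43, 7.80 and 8.10 in C cells (difference −2.29, SE 0.28, adjusted p = 0.000261). The groups did not overlap for either gene.

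Among the helicase subunits, MCM4 read 5.38, 5.52 and 5.68 in P cells and 7.90, 7.85 and 7.78 in C cells (difference −2.32, SE 0.27, adjusted p = 0.000152), with both groups tight around their means. MCM2, MCM3 and MCM5 fell by 1.19, 1.23 and 1.49, while MCM6 (−0.34) and MCM7 (−0.85) were not called. GINS1 and GINS2, partners of the helicase, differed by −2.98 and −2.15. On the brightest probe set of each gene, the clamp loader subunits RFC2, RFC3 and RFC5 fell by 1.93, 2.11 and 1.63, the clamp PCNA by 1.21 and the flap nuclease FEN1 by 2.20. RRM2, the regulated subunit of ribonucleotide reductase, which makes deoxynucleotides, read 7.31, 8.45 and 7.42 in P cells and 9.65, 10.25 and 10.08 in C cells (difference −2.27, SE 0.37, adjusted p = 0.00115). The steady subunit RRM1 differed by −1.03. Without C replicate 1, 17 of the 27 were lower, and after either rescaling 15 were.

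E2F sites are the elements through which such genes are known to be driven, and the following 60-base stretches upstream of 2 called members are shown because they carry the same letters on the same strand. The search took TTTCCCGC, TTTGGCGC, TTTCGCGC and TTTGCCGC on both strands in the RefSeq promoters (250 bases before to 50 after the start, GRCh38.p14). Capitals mark the match, which reads TTTCCCGC on the other strand in both.
RFC3 (chr13:33818069-33818128, plus strand): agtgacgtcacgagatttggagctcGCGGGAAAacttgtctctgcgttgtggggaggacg
PCNA (chr20:5126643-5126702, minus strand): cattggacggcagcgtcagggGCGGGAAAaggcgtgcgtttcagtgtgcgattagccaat
The match begins 55 bases before the start in RFC3 and 59 bases before it in PCNA. Promoters were found for 23 of the 27 tested replication genes, and 10 of them held 1 of these words, as did 3.33% of all 27305 promoters. Of the 14 called members with a promoter 7 held one. MCM6, MCM7 and ORC3 held at least 1 and were not called, and GMNN and FEN1 held none.

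DNA repair genes shared the direction in part. Of 10 tested, 4 were lower in P cells and none higher (median −0.85), where 6.54% of all genes were lower. UNG, the glycosylase that removes uracil, differed by −1.40 (SE 0.29, adjusted p = 0.00389), and TDG, which removes thymine from G:T pairs, by −1.37. H2AX, the histone phosphorylated at DNA breaks, read 7.26, 7.48 and 7.45 in P cells and 8.78, 8.56 and 8.38 in C cells (difference −1.18). It lost its call without P replicate 1, P replicate 3, C replicate 1 or C replicate 2 (adjusted p 0.052 to 0.0632). FANCI of the crosslink repair pathway differed by −1.03. It did not reach the fold limit, and was not called, after quantile normalization or centring, or without P replicate 1 (−0.86) or C replicate 3 (−0.92).

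Of 34 tested mitosis genes 6 were lower in P cells and none higher. The median was −0.58, 29 of the 34 differences were negative, and on 20 genes every P array lay below every C array, where 6.54% of all genes were lower and 29.4% lay so. ASPM, a spindle pole protein, read 6.89, 5.57 and 5.90 in P cells and 7.99, 7.69 and 7.98 in C cells (difference −1.77, SE 0.37, adjusted p = 0.00419). NDC80 of the kinetochore differed by −1.63, BIRC5 (survivin) by −1.35, the kinesin KIF2C by −1.25, the checkpoint protein MAD2L1 by −1.15 and the kinase CDK1 by −1.14. KIF2C was not called without P replicate 2 or P replicate 3 (adjusted p up to 0.065). The phosphatase CDKN3, which acts on CDKs, read 7.80, 8.21 and 7.84 in P cells and 9.06, 7.73 and 7.62 in C cells, and was not called (difference −0.19, adjusted p = 0.69). C replicate 1 alone was above the P mean, and without it the difference turned to 0.27 (adjusted p = 0.388). CCND1, the G1 cyclin that answers to growth factors, was the single called member of 4 tested G1 genes, with 6.01, 6.17 and 6.26 in P cells and 7.57, 7.24 and 7.49 in C cells (difference −1.29, SE 0.25, adjusted p = 0.00295).

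Of the genes of amino acid supply, ASNS, SLC7A11 and PHGDH were higher in P cells. All 6 tested genes of asparagine synthetase and the amino acid transporters had positive differences, and 2 of them were called (median 0.93), where 3.72% of all genes were called higher. ASNS, asparagine synthetase, read 10.66, 10.63 and 10.59 in P cells and 9.48, 9.04 and 9.09 in C cells (difference 1.42, SE 0.34, adjusted p = 0.00772). The 3 P arrays agreed within 0.1. SLC7A11, the cystine transporter, was called on all 3 of its probe sets, with 1.11 on the brightest. SLC7A5, a transporter of large neutral amino acids, read 8.29, 8.35 and 8.63 in P cells and 8.31, 6.71 and 6.84 in C cells. The C replicate 1 array alone overlapped the P arrays there, and the gene was called without that array (1.65, adjusted p = 0.00739) and not with it (1.14, adjusted p = 0.0572). PHGDH, the first enzyme of serine synthesis, differed by 1.26 (SE 0.33), the single call among 7 tested serine and one-carbon genes. Without C replicate 2 neither PHGDH (1.12, adjusted p = 0.0531) nor SLC7A11 on that probe set (0.86, under the fold limit) was called. None of 9 tested aminoacyl-tRNA synthetases was called, though 8 were positive (median 0.49).

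In the integrated stress response list, 1 of 7 tested genes was called, and 6 were positive (median 0.87). TRIB3, a pseudokinase that ATF4 and CHOP induce, read 10.002, 9.78 and 9.67 in P cells and 8.36, 7.12 and 7.23 in C cells (difference 2.25, SE 0.44, adjusted p = 0.0029). ATF4 itself differed by 0.89 and CEBPG by 0.95, with no overlap between groups but short of the fold limit. After centring each array 3 of the 7 were called. Without C replicate 1, 2 of the 7 were called higher and 1 lower. DDIT3 (CHOP), picked out after its values were seen, had failed the filter. In a fit of all 22215 probe sets except controls, where 2.78% were called, it read 8.15, 7.74 and 7.89 in P cells and 5.82, 5.57 and 5.76 in C cells (difference 2.21, SE 0.31, adjusted p = 0.00354). ATF3, which p53 and the stress response both can induce, ran against the list, with 7.17, 6.86 and 6.35 in P cells and 5.09, 9.27 and 9.18 in C cells. Its C arrays lay on both sides of the P arrays.

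Of 7 tested unfolded protein response genes 2 were higher in P cells, SEL1L and HERPUD1, both of which serve the export and degradation of misfolded protein. Over all genes 3.72% were called higher. The list had a median of 0.20, with 4 positive and 3 negative differences. SEL1L read 8.27, 8.20 and 8.25 in P cells and 6.84, 6.57 and 7.01 in C cells (difference 1.43, SE 0.27, adjusted p = 0.00268). HERPUD1 was not called without C replicate 2 or C replicate 3 (adjusted p up to 0.0578). MANF, a secreted factor of the same response, had a difference of −0.93. No cytosolic chaperone of 13 was called, and 12 differences were negative (median −0.44, lowest −0.99 for DNAJA1). With the probe set of the largest spread for each gene, 2 of the 13 were lower.

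The composite element of C/EBP and ATF factors, the site through which ATF4 is known to act on ASNS, was searched as TGATGNAA on both strands. The stretch of the ASNS promoter is shown because it holds these letters, in capitals, from 68 bases before the start.
ASNS (chr7:97872449-97872508, minus strand): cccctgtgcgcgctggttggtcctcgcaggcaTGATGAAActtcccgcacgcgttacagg
Of the 6 tested genes of its list 5 had a promoter and 3 held the letters, against 3.67% of all promoters. SLC3A2 and SLC7A1, the other holders, were not called.

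**Figure D2:**
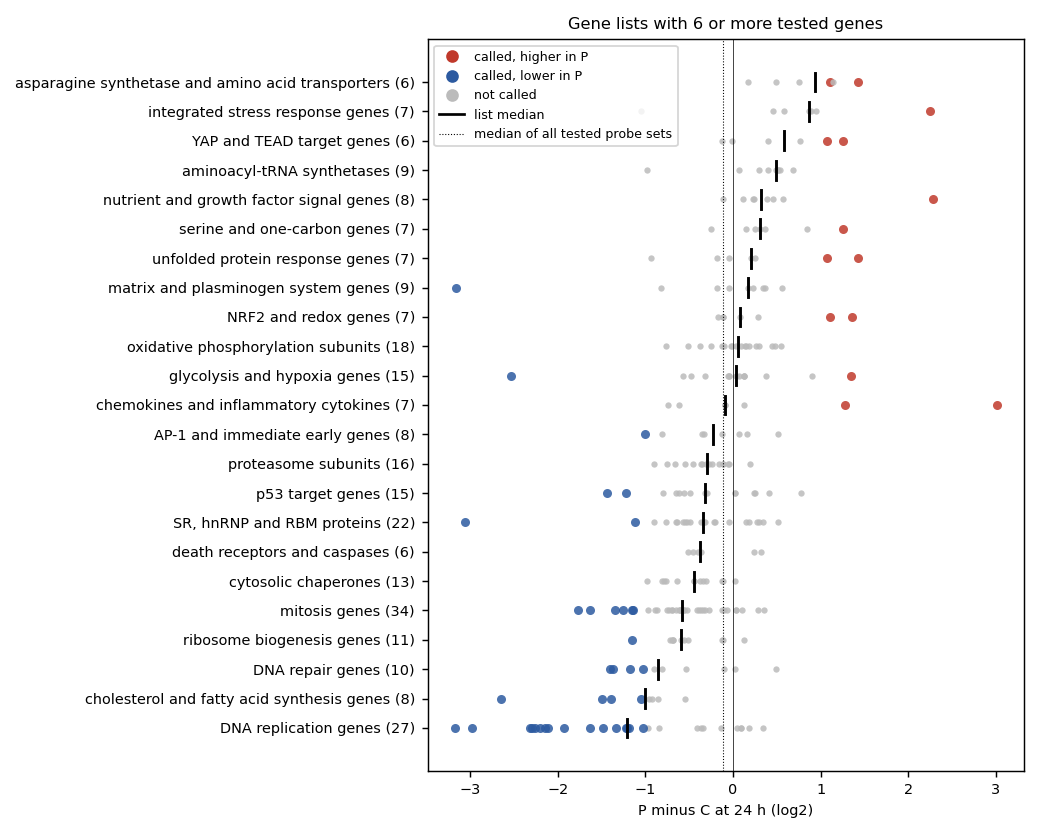
Difference P minus C at 24 h (log2) of each tested gene in the 23 lists with 6 or more tested genes (numbers in brackets), 1 point per gene, with called genes in colour and list medians as black bars. The replication list has its median at −1.21 and holds 16 called falls, while all 6 genes of asparagine synthetase and the transporters lie above 0.

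Chemokines split by gene. CXCL3 and its neighbour CXCL2, both ligands of the receptor CXCR2, were the 2 called of 7 tested chemokine and cytokine genes. CXCL2 read 11.15, 10.98 and 11.01 in P cells and 10.04, 9.50 and 9.76 in C cells (difference 1.28, SE 0.26, adjusted p = 0.00362). CXCL1 read 6.83, 6.12 and 6.54 in P cells and 6.43, 6.78 and 6.56 in C cells (difference −0.10), and CXCL8 differed by −0.09. For both of these the arrays of the groups were mixed. IL1B differed by −0.74 and was called without C replicate 1 (−1.0, adjusted p = 0.00831). The related CXCL genes are close in sequence, and the CXCL2 probe set is of the type that may pick up relatives.

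The kappaB element, at which NF-kappaB is known to bind, was searched as GGAATTTCC on both strands. The promoters of CXCL3 and CXCL2 are shown because both called members hold it, in capitals, within a run of like sequence.
CXCL3 (chr4:74038730-74038789, minus strand): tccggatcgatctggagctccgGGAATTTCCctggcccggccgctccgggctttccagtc
CXCL2 (chr4:74099236-74099295, minus strand): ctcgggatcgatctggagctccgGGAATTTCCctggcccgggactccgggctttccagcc
The letters begin 78 bases before the start in CXCL3 and 77 bases before it in CXCL2. They stand in 0.472% of all promoters and in 5 of the 7 of the tested list members. The other holders were CXCL1, from 78 bases before its start, CXCL8, from 91 bases, and NFKBIA, the inhibitor of NF-kappaB. None of these 3 genes was called (−0.10, −0.09 and 0.13 in that order).

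Metallothioneins are small proteins that bind zinc and other metals, and 3 of the 8 listed ones on the arrays were tested. These 3, MT1X, MT2A and MT1H, were all called higher in P cells (median 1.20). MT1X differed by 1.47 on its brighter probe set and by 2.15 on the other. MT2A read 10.38, 10.29 and 10.41 in P cells and 9.52, 9.44 and 8.52 in C cells (difference 1.20, SE 0.34, adjusted p = 0.0195). C replicate 3 was the dimmest array for all 3 genes, and none of the 3 was called without it, without P replicate 1 or without P replicate 3 (MT2A at an adjusted p of up to 0.0922, MT1X of up to 0.107 and MT1H of up to 0.179). MT1H also lost its call without P replicate 2 or C replicate 2. The family is nearly identical in sequence, so these probe sets cannot be taken as 3 separate measurements. The metal response element, searched as TGCACNC and TGCGCNC on both strands, was in all 3 promoters and in 29.3% of all promoters. A stretch of the MT1X promoter with 2 matches is shown in capitals as the element closest to this group.
MT1X (chr16:56682310-56682369, plus strand): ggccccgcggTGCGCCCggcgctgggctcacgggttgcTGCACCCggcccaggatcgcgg
The first match begins 150 bases and the second 122 bases before the start. Among 7 tested NRF2 and redox genes, GCLC, the enzyme that limits glutathione synthesis, differed by 1.36 (SE 0.33, adjusted p = 0.00898), and SLC7A11 was the other call. The other GCLC probe set was not called (0.76, adjusted p = 0.0568).

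Whether p53 target genes differed between P and C cells depended on C replicate 1. With all arrays 2 of 15 tested were lower in P cells, PPM1D and TIGAR (median −0.32). Without that array 8 of the 15 were lower (median −1.0). TIGAR lost its call without P replicate 1, P replicate 3, C replicate 2 or C replicate 3 (adjusted p up to 0.0963). On the list's median, the P arrays lay 0.63, 0.48 and 0.34 above the untreated mean, and the C arrays 0.21, 1.12 and 1.06 above it. The 2 P/C arrays lay 1.11 and 0.94 above it. C replicate 1 was thus below all 3 P arrays, and the other 2 C arrays were above them.

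CDKN1A (p21), the CDK inhibitor that p53 induces, shows the split. It read 9.82, 9.62 and 9.55 in P cells and 8.66, 10.71 and 11.46 in C cells, against 8.46 on average in untreated cells. The difference was −0.62 (SE 0.47, adjusted p = 0.351) with all arrays and −1.42 (adjusted p = 0.00236) without C replicate 1. GDF15, a stress cytokine, read 10.49, 10.27 and 10.25 in P cells and 9.01, 11.27 and 11.68 in C cells. PPM1D, the phosphatase that feeds back on p53, read 6.84, 6.12 and 6.56 in P cells and 6.27, 8.72 and 8.82 in C cells, and differed by −1.43 (adjusted p = 0.045). Without C replicate 1 PPM1D differed by −2.27 (adjusted p = 0.000377), and its call was kept in 3 of 13 alternatives. MDM2, the ubiquitin ligase of p53, failed the filter, and its P mean was near background on each of its probe sets. On the brightest of them it read 4.14, 3.41 and 3.56 in P cells and 2.31, 4.83 and 6.39 in C cells.

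Other genes dim in the P arrays and bright in 2 of 3 C arrays were picked out after their values were seen. FAS, the death receptor, read 4.97, 4.52 and 4.05 in P cells and 4.90, 7.52 and 7.57 in C cells on its brightest probe set (difference −2.15, adjusted p = 0.0467 over all 22215 probe sets). DDB2, which senses damaged bases in nucleotide excision repair, read 6.34, 6.36 and 6.06 in P cells and 6.55, 8.95 and 8.82 in C cells (difference −1.85, adjusted p = 0.0443). TNFAIP3 (A20), an inhibitor of NF-kappaB, read 5.56, 5.05 and 5.67 in P cells and 4.11, 8.73 and 8.92 in C cells, and was called only without C replicate 1. ISG15, an interferon-stimulated ubiquitin-like protein, read 6.10, 6.88 and 6.10 in P cells and 6.0, 9.14 and 8.60 in C cells. In each of these 4 genes C replicate 1 lay more than 2 units below both other C arrays.

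**Figure D3:**
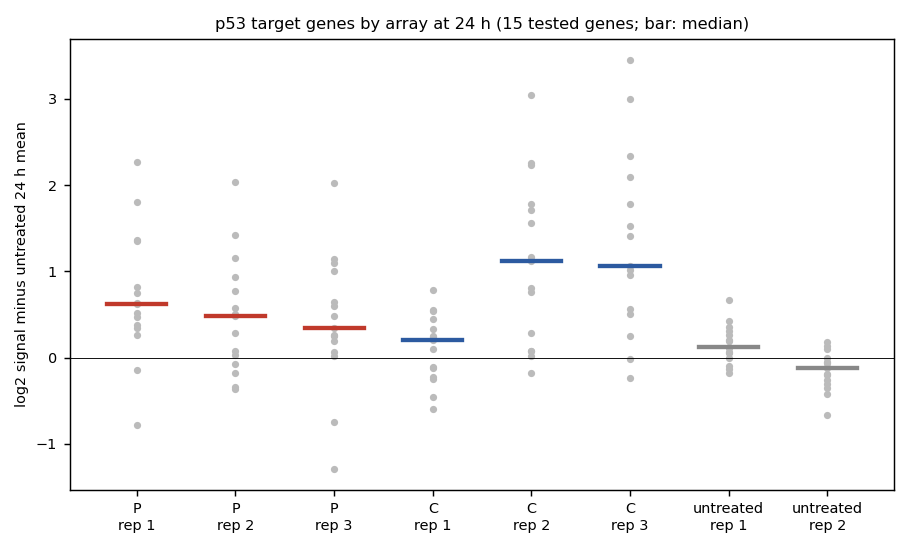
Log2 signal of the 15 tested p53 target genes on each 24 h array, as the difference from the mean of the 2 untreated arrays, 1 point per gene and a bar at the median of the array. The medians are 0.63, 0.48 and 0.34 in P arrays and 0.21, 1.12 and 1.06 in C arrays, with C replicate 1 lowest.

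Genes of cholesterol and fatty acid synthesis had negative differences. Each of the 8 tested had all P arrays below all C arrays, and 4 were called lower in P cells (median −1.0). Over all 2203 genes 29.4% had every P array below every C array, and 6.54% were called lower. IDI1 read 6.17, 5.51 and 6.03 in P cells and 8.16, 8.83 and 8.69 in C cells (difference −2.65, SE 0.44, adjusted p = 0.00125). SCD, which desaturates fatty acids, differed by −1.40, FASN, which makes palmitate, by −1.5 and EBP, a sterol isomerase, by −1.05. After quantile normalization or centring 2 of the 8 were called, and FASN also lost its call without any 1 of P replicates 1, 2 and 3 and C replicates 1 and 3 (adjusted p up to 0.128). EBP lost its call without P replicate 1 or C replicate 2 (adjusted p up to 0.0551).

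EGFR was the single call among 4 tested ERK feedback and EGF receptor genes. EGFR read 9.69, 8.94 and 9.33 in P cells and 7.07, 7.51 and 8.44 in C cells (difference 1.65, SE 0.38, adjusted p = 0.0065). Its untreated mean was 8.65, closer to the P arrays. CRIM1 and CCN1, 2 YAP and TEAD target genes of 6 tested, differed by 1.26 and 1.07. IER3, which restrains cell death, was the single call among 8 tested AP-1 and immediate early genes. It differed by −1.01 and did not reach the fold limit after either rescaling. IER3 also lost its call without P replicate 1, C replicate 2 or C replicate 3 (adjusted p up to 0.0527), as CCN1 did without P replicate 1, P replicate 3, C replicate 2 or C replicate 3 (up to 0.0927). ADM, the vasodilator peptide adrenomedullin, read 4.88, 4.46 and 4.88 in P cells and 6.60, 7.39 and 7.84 in C cells (difference −2.54, SE 0.49, adjusted p = 0.00275), while the mitophagy receptor BNIP3L differed by 1.35 and was not called without C replicate 2 (adjusted p = 0.0671). These were the 2 calls among 15 tested glycolysis and hypoxia genes.

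Among 22 tested SR, hnRNP and RBM proteins 2 were lower, SRSF6 and HNRNPA3 (−1.11), a share close to the 6.54% of all genes. HNRNPA3 was under the fold limit without C replicate 1 (−0.96) and after either rescaling. NOP16, a nucleolar protein of ribosome assembly, was the single call of 11 ribosome biogenesis genes (−1.15), which is also near that share. On the brightest probe set of each gene, no call was made among 16 proteasome subunits or 18 oxidative phosphorylation subunits. Nor was any made among 6 death receptors and caspases, 4 BCL2 family genes and 4 interferon-stimulated genes. With the probe set of the largest spread for each gene, 2 of the 16 proteasome subunits were lower. PSMD12, described with its probe sets, was called on the dimmer of them. Without C replicate 1, PMAIP1 (NOXA), a BCL2 family member that promotes death and a p53 target, was lower (−1.04, adjusted p = 0.00537), as was ISG15 (−2.51, adjusted p = 0.00164). Of 20 prostaglandin pathway genes 1 was tested. PTGS1 and PTGS2, the cyclooxygenases that piroxicam inhibits, were near background, with 1.94, 2.23 and 2.01 for PTGS2 in P cells and 1.90, 2.29 and 1.84 in C cells.

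Several large falls were seen by 1 probe set of a gene and not by others. Of 439 genes with 2 or more tested probe sets, 86 had a call and on 68 of these some probe sets were called and some were not. In 38 genes the probe sets differed by at least 1, and a fall was called in 27 of the 38 and a rise in 2. No gene was called in both directions. PSMD12, a proteasome cap subunit, read 3.75, 3.89 and 3.57 in P cells and 6.96, 6.37 and 6.49 in C cells on 1 probe set, and differed by −0.05 on the other. EIF1AX, an initiation factor, was called on 1 of its 4 probe sets, and the others differed by −0.75, −0.43 and 0.00. SUB1 differed by −0.40 and −0.57 on its other probe sets and SPARC, a matrix glycoprotein, by −0.82. Other named genes were also called on only some of their probe sets. The probe set without a call differed by 0.66 for CRIM1, 0.98 for CCN1, −0.54 for NOP16 and −0.80 for PGRMC2. HNRNPA3 was called on 2 of its 3 probe sets and differed by −0.28 on the last. FEN1, RFC3, IDI1 and MCM4 were called on both of their probe sets. Which transcripts the probe sets reach was not tested.

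The span of a gene on the genome, taken from RefSeq (GRCh38.p14), ran with the direction of the calls. The 82 genes called higher in P cells had a median span of 78.3 kb and the 144 called lower 20.6 kb, against 30.9 kb over all 2203. Of the 82 higher genes 42.7% spanned over 100 kb, of the 144 lower ones 4.17%, and of all tested genes 14.4%. Among the 317 genes over 100 kb, 35 were higher and 6 lower, and the median difference was 0.22. It was −0.08 for spans of 30 to 100 kb, −0.25 for 10 to 30 kb and −0.24 up to 10 kb.

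For the genes over 100 kb the medians of the P arrays lay 0.09 above, 0.22 below and 0.09 below the untreated mean, and those of the C arrays 0.11, 0.54 and 0.37 below it. The C replicate 1 array lay within the P range and the other 2 C arrays below it. Without C replicate 1 the median difference of these genes was 0.39, and at 8 h it was 0.10. EXT1, PTPRK, COG5 and EGFR are among the called genes of this class. Genes are not independent replicates, so these values are a description of the 6 arrays.

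**Figure D4:**
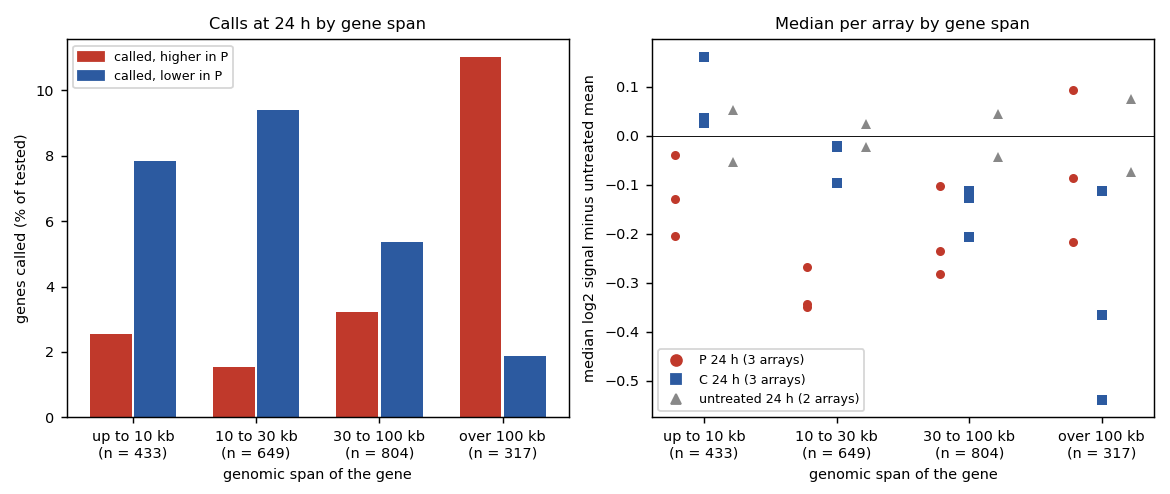
Left, percent of tested genes called higher or lower in P cells at 24 h, by genomic span. Right, median log2 signal of the genes of each class on each P, C and untreated array, as the difference from the untreated mean. Over 100 kb, 11% of genes were called higher and 1.89% lower, and 2 of the 3 C arrays lie under all P arrays.

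The untreated arrays place the difference. Of the 98 probe sets higher in P cells, the untreated mean was nearer the C mean in 60 and nearer the P mean in 38, and it lay between the 2 drugs in 75. Of the 234 lower in P cells it was nearer the C mean in 222 and nearer the P mean in 12. In 144 of these 234 the untreated mean lay above both drugs, on the C side. The 2 untreated arrays were not part of the comparison, and no test was made of this placement.

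At 8 h, with 2 arrays per drug, 13 of the 3057 probe sets were called (0.425%, limma), 4 higher and 9 lower in P cells. DDIT4 (REDD1), a stress-induced inhibitor of mTORC1, read 7.73 and 7.72 in P cells and 3.57 and 4.04 in C cells (difference 3.92, SE 0.46, adjusted p = 0.000764). By 24 h its arrays overlapped, with 8.58, 8.52 and 8.68 in P cells and 8.61, 7.66 and 8.14 in C cells (difference 0.46). FGF2, a growth factor, differed by 1.23 at 8 h and 0.98 at 24 h, and NBR1, an autophagy receptor, by 1.67 and 0.93. On its other probe set FGF2 was called at neither time (−0.09 at 8 h and 0.45 at 24 h). PGRMC2, a membrane haem-binding protein, read 5.67 and 5.65 in P cells and 7.83 and 7.72 in C cells at 8 h (difference −2.12, SE 0.32), and was called at 24 h too (−2.27). RGS4, a brake on G protein signals, and the splicing kinase PRP4K fell by 2.85 and 2.68 at 8 h and by 1.96 and 1.71 at 24 h. The P mean of RGS4 was near background at 24 h. PSMD12, on the probe set that fell at 24 h, was called at 8 h too (−1.68, adjusted p = 0.0332). HEXIM1, an inhibitor of the elongation kinase P-TEFb, fell by 1.76 and 1.17, and RBM25, a splicing regulator, by 1.99 at 8 h. RBM25 was not called at 24 h (−0.58, adjusted p = 0.107), where its other probe sets differed by 0.67 and 0.27.

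At 8 h none of the 27 replication genes was called, and their median difference was −0.06. The differences of single genes ranged widely. GINS1 read 7.39 and 7.58 in P cells and 8.52 and 8.62 in C cells at 8 h (difference −1.09, adjusted p = 0.413). FEN1 differed by −0.99, RRM2 by −0.88, GMNN by −0.78 and CDC6 by −0.77, while MCM4 differed by −0.22, MCM2 by −0.03 and PRIM1, the primase subunit, by 0.99. The test of the difference between times called no probe set (limma, 244 at an unadjusted p under 0.05, lowest adjusted p 0.0745). RFC3 on its dimmer probe set, the one among the 12 largest falls, differed by −2.88 at 24 h and by 0.12 at 8 h (difference between times −3.0, SE 0.54, adjusted p = 0.0745). On its brighter probe set the difference between times was −1.95 (SE 0.49, adjusted p = 0.308). MCM4 gave −2.09 (SE 0.42, adjusted p = 0.0855) on the probe set described above and −1.58 (adjusted p = 0.316) on its other one. DDIT4 gave −3.46 (SE 0.59, adjusted p = 0.0745). None of these was thus shown to differ between times. CXCL3 differed by 1.30 at 8 h (adjusted p = 0.48).

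**Figure D5:**
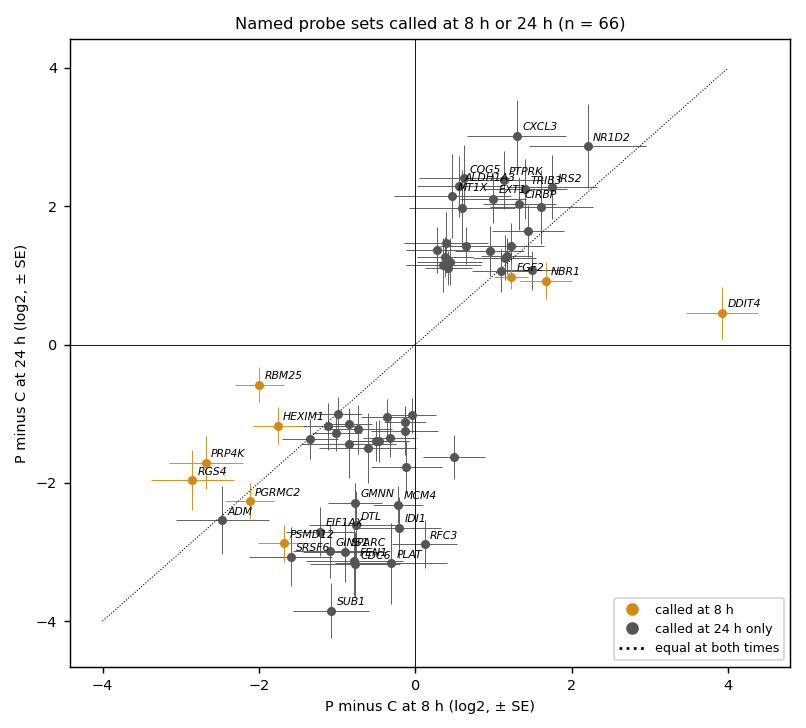
Difference P minus C at 8 h (x axis) and at 24 h (y axis) for the 66 named probe sets called at either time, log2 with SE from the limma fit, and a dotted line where both are equal. DDIT4 lies far right at 3.92 on the x axis and 0.46 on the y axis, and the replication genes lie below the dotted line.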

How the data were processed

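The 18 HGU133A arrays each held the RNA of 1 sample of MSTO-211H cells. The authors checked the arrays, removed outlying ones and made the deposited log2 values with GCRMA, which corrects background and normalizes between arrays. The GCRMA version was not given in the sources used here. Raw intensities were not used. No counts exist, so the number of arrays limits the precision.

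The limits that the methods state were applied (IQR no lower than 0.25, and a signal of 100 or more, which is 6.64 on the log2 scale, on 25% or more of the arrays). On the deposited values 10388 probe sets passed the first and 3089 both, counts that are not those of the study, so its own filter was not rebuilt. The 68 control probe sets were left out and 3057 stayed. limma 3.58.1 in R 4.3.3 was fitted on all arrays with 8 group means and no covariates (10 residual and 5.76 prior degrees of freedom), with two-sided tests. The smallest exact p of 3 against 3 arrays is 0.1, so single values were read through the fit alone. P-values were adjusted over all probe sets tested. The fit was tested on simulated data.

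Groups came from the labels. Gene names are those of GEO's platform annotation, with 1 symbol for 19071 probe sets, several for 1043 and none for 2169. A gene stands in a list through its tested probe set with the highest mean. Genes were named by rule: the 12 largest rises and 12 largest falls with separate arrays, and up to 4 called members of each list. The called genes with the largest differences in each direction at 8 h were named too, not every call. PTGS1, PTGS2, CDKN1A, MDM2 and CDKN3 were named whatever their values. The members and lists were chosen with earlier results of these data known. Further genes were picked out after their values were seen and are not evidence beyond their values: the other members named with their groups, and those said to be so chosen in the text. Promoters, 27305 in all, and gene spans came from RefSeq (GRCh38.p14).

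Alternatives were another scaling, filter, set of arrays, array weights, a replicate block and each array left out. Same-numbered P and C arrays at 24 h had deviations from the group means correlated at 0.11, 0.16 and −0.1. Arrays of different number ranged from −0.31 to 0.16, so these values neither show nor exclude a pairing at 24 h. At 8 h, with 2 arrays per group, the deviations of the 2 replicates mirror each other. Both same-numbered pairs thus have the same value by construction, 0.46, and this settles no pairing.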

Additional observations from a re-analysis of the deposited data

How the results depend on the processing

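Whether the replicate numbers pair the 24 h arrays was not settled. With the replicate number as a block the count at 24 h was 344 in the fit of all arrays and 342 in that of the 6 arrays, against 332. At 8 h the block gave 21 and 85 probe sets, against 13, and 3 and 26 for the difference between times, against 0.

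At 24 h the count was 312 after quantile normalization, 316 after centring, 391 with array weights and 328 with the 6 arrays alone. It was 617 without a filter and 190 with a signal of at least 200. Leaving out 1 array gave 283 to 390. Of the 98 rises and 234 falls, leaving out C replicate 1 gave 147 and 243, C replicate 2 gave 57 and 226, and P replicate 1 gave 61 and 243. At 8 h the count was 26 without a filter, 7 with a signal of at least 200, 74 with array weights, 58 with the 4 arrays alone and 1 to 3 with 1 array left out, where the lone array was assumed to vary like the others. For the difference between times it was 1 after centring, 1 with a signal of at least 200, 59 with array weights, 18 with the 10 arrays alone and 0 to 1 with 1 array left out. The cause of these shifts was not tested.

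Of 62 named values called at 24 h none changed sign in any alternative, and 42 kept their call in every alternative that tested them. The other 20 lost it in at least 1, most often PPM1D, FASN, MT1H, TIGAR, H2AX, IER3 and CCN1.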

Other observations

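The 2 P/C arrays at 24 h, which received both drugs, differed from each other on the genes with the largest rises in P against C cells. On P/C replicate 1, 11 of these 12 genes lay nearer the C mean and NR1D2 nearer the P mean. On P/C replicate 3, 10 of the 12 lay nearer the P mean, and COG5 and EXT1 nearer the C mean. CXCL3 read 6.47 and 9.59 on P/C replicates 1 and 3, beside means of 9.81 in P cells and 6.79 in C cells. MT1X read 4.53 and 7.99 on them (means 8.61 in P cells and 6.46 in C cells) and TRIB3 7.15 and 9.42 (means 9.81 in P cells and 7.57 in C cells). All 12 were higher on replicate 3, by 0.49 for EXT1 to 3.47 for MT1X. The p53 target list differed little between them, at 1.11 and 0.94 above the untreated mean. With 2 arrays no test was made, and the genes were looked at after these values were seen.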
